A study of Rattus norvegicus with 12 samples.

Results

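The endothelin, adrenomedullin and enkephalin genes of the rat heart were followed across chamber and operation. The set comprised 10 genes, taken by name: Edn1, Ednra, Ednrb, Ece1, Adm, Calcrl, Ramp1, Ramp2, Ramp3 and Penk. Of these, 8 were matched to 9 of 31099 probe sets through a single gene symbol in the platform annotation, while Ednra and Ednrb were matched to none and are not analysed here. The arrays held 14217 genes with such a match in all. The tissue came from male Sprague-Dawley rats of 225 to 275 g that had carried an aorto-caval shunt, a surgical opening from aorta to vena cava that adds blood volume to the heart, or a sham operation, for 28 days. The 4 groups were left atrial appendage after shunt, left atrial appendage after sham, left ventricular free wall after shunt and left ventricular free wall after sham. Each group had 3 arrays, and each array held a pool of 2 tissues, so the spread of single animals cannot be seen. All rats were of 1 strain and sex, and the sources used here do not say whether an atrial and a ventricular pool shared animals.

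Endothelin-1, encoded by Edn1, is a vasoconstrictor peptide of the endothelium that also acts on heart muscle. It is cut from its precursor by endothelin-converting enzyme, encoded by Ece1, and acts through the receptors encoded by Ednra and Ednrb. Adrenomedullin, encoded by Adm, is a vasodilator peptide. Its receptor is the calcitonin receptor-like receptor, encoded by Calcrl, which works only with a partner protein of the RAMP family: Ramp1 makes it a receptor for calcitonin gene-related peptide, and Ramp2 or Ramp3 make it a receptor for adrenomedullin. Penk encodes proenkephalin, the precursor of the enkephalins, which are opioid peptides, and its RNA is known in heart muscle cells of the rat.

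The values were deposited on a log2 scale, where a step of 1 is a doubling of signal. They ran from 2.05 to 14.29, and the arrays had medians of 4.54 to 4.59. Arrays of 1 group correlated at 0.983 to 0.996 across the 18625 probe sets tested, which are those whose mean over the 12 arrays was 4.01 or more. The chamber labels matched the markers: 8 atrial myocyte genes averaged 10.05 to 10.24 on the atrial arrays and 5.74 to 6.58 on the ventricular arrays, and 7 ventricular myocyte genes averaged 5.93 to 7.04 on the atrial and 10.60 to 10.85 on the ventricular arrays. Atrial shunt 3 deviated most from its group, with a root mean square deviation of 0.200 against 0.0913 to 0.163 on the other arrays. A hybridization signal does not compare 1 gene with another, so each gene is compared only with itself. In such tissue, fewer cells of a type and less RNA per cell cannot be told apart.

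The RefSeq promoter table of build GRCr8 held 6 of the 8 measured genes: Edn1, Ece1, Adm, Calcrl, Ramp1 and Ramp3. The upstream bases of Edn1, Adm and Ramp1 are shown because these genes had shunt differences with an unadjusted p under 0.05 in 1 chamber. The Edn1 sequence is chr17:22666792-22666937 on the minus strand and stops at a TATA box 105 bases before the listed start. The Adm sequence is chr1:174179950-174180199 and the Ramp1 sequence chr9:99212866-99213115, both on the plus strand and 250 bases long. Capitals mark matches, on either strand, to the TATA box motif TATAAA, to the GATA factor motif GATA, or to the hypoxia response core, which is ACGTG or, in the other form searched, GCGTG.
Edn1: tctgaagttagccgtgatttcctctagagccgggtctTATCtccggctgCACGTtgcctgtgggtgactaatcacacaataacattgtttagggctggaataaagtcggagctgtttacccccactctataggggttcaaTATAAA
Adm: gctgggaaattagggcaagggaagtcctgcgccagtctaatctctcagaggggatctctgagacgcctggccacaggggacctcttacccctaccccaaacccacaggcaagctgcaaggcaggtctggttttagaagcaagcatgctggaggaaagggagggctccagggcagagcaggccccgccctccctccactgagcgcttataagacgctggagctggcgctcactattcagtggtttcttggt
Ramp1: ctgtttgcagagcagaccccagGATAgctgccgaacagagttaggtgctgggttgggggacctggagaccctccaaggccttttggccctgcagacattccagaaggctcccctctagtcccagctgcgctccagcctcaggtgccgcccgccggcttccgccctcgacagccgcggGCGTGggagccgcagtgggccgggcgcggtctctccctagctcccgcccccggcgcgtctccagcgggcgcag
Over the 250 bases before the start, the hypoxia response core stood in 3 of the 6 genes, against 37.9% of 27457 promoters, GATA in 4, against 55.1%, and TATAAA in 1, against 13.1%. The AP-1 motif TGANTCA and the cyclic AMP response core TGACG stood in 0 of the 6, against 6.36% and 19% of all promoters. None of the motifs overlapped another in the sequences shown, and a match or its absence says nothing of what binds there.

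**Figure D1:**
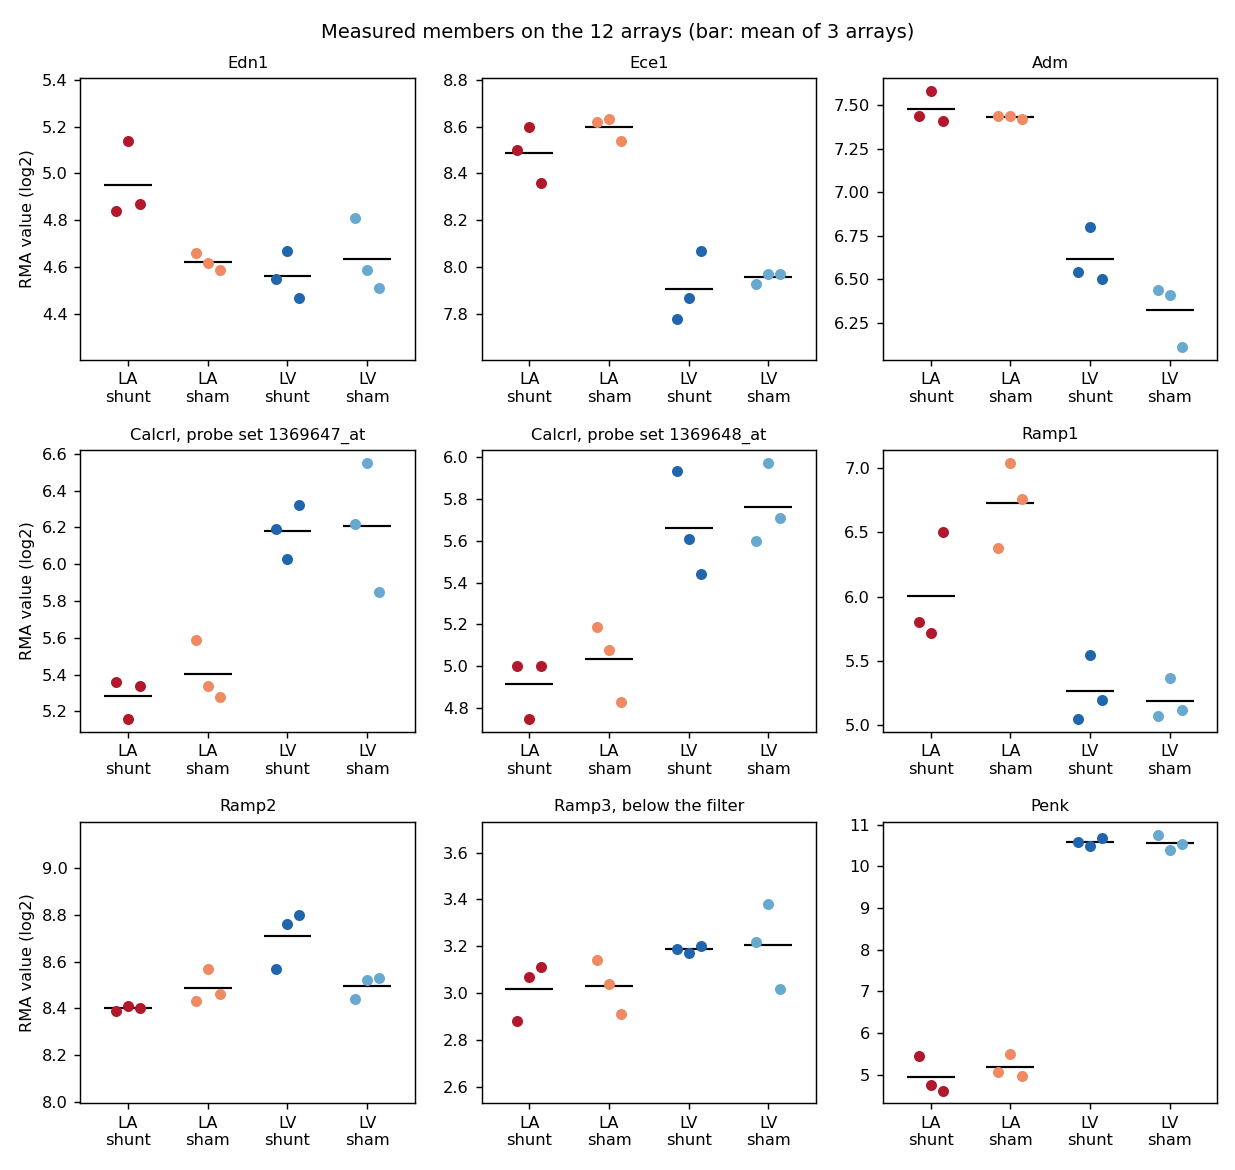
RMA values (log2, vertical axes with a separate range each) of the 9 probe sets of the 8 measured genes on the 12 arrays. Points are arrays, bars are means of 3 arrays, and LA and LV are left atrium and left ventricle. Penk stood at 4.62 to 5.51 on all atrial arrays and at 10.40 to 10.76 on all ventricular arrays.

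The first question was how the atrium and the ventricle differed in these genes. Proenkephalin RNA was far lower in the atrium: the Penk difference was -5.64 ± 0.20 after the shunt and -5.39 ± 0.20 in sham rats (SE, n = 3 per group), which is 49.9-fold and 42-fold lower. The atrial values of 4.62 to 5.51 were low, not far above the array medians of 4.54 to 4.59, so these folds are approximate. The adrenomedullin and endothelin-converting enzyme genes, and the receptor partner gene Ramp1, were higher in the atrium after either operation, and the receptor gene Calcrl was lower. Edn1, higher in the atrium, and Ramp2, lower there, passed the test after the shunt and did not in sham rats, but the change of that difference was tested too and did not pass (limma, adjusted p = 0.621 for Edn1 and 0.595 for Ramp2). With limma's test, adjusted over all probe sets tested, 7 of the 7 genes tested passed after the shunt, 4 higher and 3 lower in the atrium, where 41.9% of all probe sets passed, 22.4% as higher and 19.4% as lower. In sham rats 5 of 7 passed, 3 higher and 2 lower, where 47.2% of all probe sets passed, 25.2% as higher and 22% as lower. The arrays of the chambers did not overlap for 7 of 7 genes after the shunt, against 49.3% of all probe sets, and for 5 of 7 in sham rats, against 61.2%. The median size of the difference over the 7 genes was 0.74 after the shunt and 0.80 in sham rats, against 0.22 and 0.24 over all probe sets tested.

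Among the ligands, Penk had values of 5.46, 4.76 and 4.62 in shunt atria against 10.59, 10.48 and 10.69 in shunt ventricles. In sham rats it had 5.06, 5.51 and 4.96 in the atrium against 10.76, 10.40 and 10.54 in the ventricle. The highest atrial array, at 5.51, stood far below the lowest ventricular array, at 10.40, and the adjusted p was 1.91e-09 after the shunt and 2.27e-09 in sham rats. Penk ranked 3 from the lowest of 18625 probe sets after the shunt, behind Myl2, the ventricular regulatory light chain, at -8.44, and Rpl3l, a muscle form of a ribosomal protein, at -6.21. In sham rats it ranked 4 from the lowest, with Myl3, the ventricular essential light chain, at -5.72 also ahead. Penk passed in 12 of 12 fits that each left out 1 array, where the shunt chambers differed by -5.90 to -5.48 and the sham chambers by -5.56 to -5.28.

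Adm had values of 7.44, 7.58 and 7.41 in shunt atria against 6.54, 6.80 and 6.50 in shunt ventricles, a difference of 0.87 ± 0.10 (adjusted p = 3.44e-05). In sham rats the values were 7.44, 7.44 and 7.42 in the atrium against 6.44, 6.41 and 6.11 in the ventricle, a difference of 1.11 ± 0.10 (adjusted p = 4.13e-06). Every atrial array stood above every ventricular array, and the sham atria were nearly alike. Edn1 had values of 4.84, 5.14 and 4.87 in shunt atria against 4.55, 4.67 and 4.47 in shunt ventricles, a difference of 0.38 ± 0.10 (adjusted p = 0.00808). The sham values were 4.66, 4.62 and 4.59 in the atrium against 4.81, 4.59 and 4.51 in the ventricle, groups that overlapped, with a difference of -0.01 ± 0.10 (limma, adjusted p = 0.919; 95% interval -0.23 to 0.20). Edn1 lay near the median probe set, its mean of 4.69 at the 51.9 percentile of probe sets, so its signal was low in the range of values and close to the filter.

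Ece1, the enzyme that releases the active peptide, was higher in the atrium by 0.58 ± 0.08 after the shunt (adjusted p = 0.000163) and by 0.64 ± 0.08 in sham rats (adjusted p = 7.37e-05). Its values were 8.36 to 8.60 in shunt atria against 7.78 to 8.07 in shunt ventricles, and 8.54 to 8.63 in sham atria against 7.93 to 7.97 in sham ventricles. The chambers did not overlap after either operation.

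Of the receptor genes, Calcrl had values of 5.36, 5.16 and 5.34 in shunt atria against 6.19, 6.03 and 6.32 in shunt ventricles, a difference of -0.89 ± 0.15 (adjusted p = 0.000591). Sham rats had 5.59, 5.34 and 5.28 in the atrium against 6.22, 6.55 and 5.85 in the ventricle, a difference of -0.80 ± 0.15 (adjusted p = 0.00113). The chambers did not overlap. The other Calcrl probe set gave -0.74 ± 0.14 after the shunt and -0.73 ± 0.14 in sham rats (adjusted p = 0.00116 and 0.0012), the same direction and a similar size.

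The RAMP partners did not share 1 pattern. Ramp1, the partner for calcitonin gene-related peptide, had values of 5.80, 5.72 and 6.50 in shunt atria against 5.05, 5.55 and 5.20 in shunt ventricles, a difference of 0.74 ± 0.22 (adjusted p = 0.0168). In sham rats it had 6.38, 7.04 and 6.76 in the atrium against 5.07, 5.37 and 5.12 in the ventricle, a difference of 1.54 ± 0.22 (adjusted p = 0.000125). The chambers did not overlap after either operation, but after the shunt the lowest atrial array stood just above the highest ventricular one. Leaving out 1 array at a time ended the call after the shunt in 3 of 12 fits: without atrial shunt 3 (0.49, limma adjusted p = 0.0524), ventricular shunt 1 (0.62, adjusted p = 0.0668) or ventricular shunt 3 (0.70, adjusted p = 0.0508).

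Ramp2, a partner for adrenomedullin, was lower in the atrium after the shunt, with a difference of -0.31 ± 0.07 (adjusted p = 0.00413) and values of 8.39, 8.41 and 8.40 against 8.57, 8.76 and 8.80 in the ventricle. The sham values were 8.43, 8.57 and 8.46 in the atrium against 8.44, 8.52 and 8.53 in the ventricle, groups that overlapped, and the difference was -0.01 ± 0.07 (limma, adjusted p = 0.905; 95% interval -0.17 to 0.14). Ramp3, the other adrenomedullin partner, had a mean of 3.11 over the 12 arrays, below the filter, and was not tested. Its values were 2.88 to 3.11 in shunt atria, 2.91 to 3.14 in sham atria, 3.17 to 3.20 in shunt ventricles and 3.02 to 3.38 in sham ventricles.

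**Figure D2:**
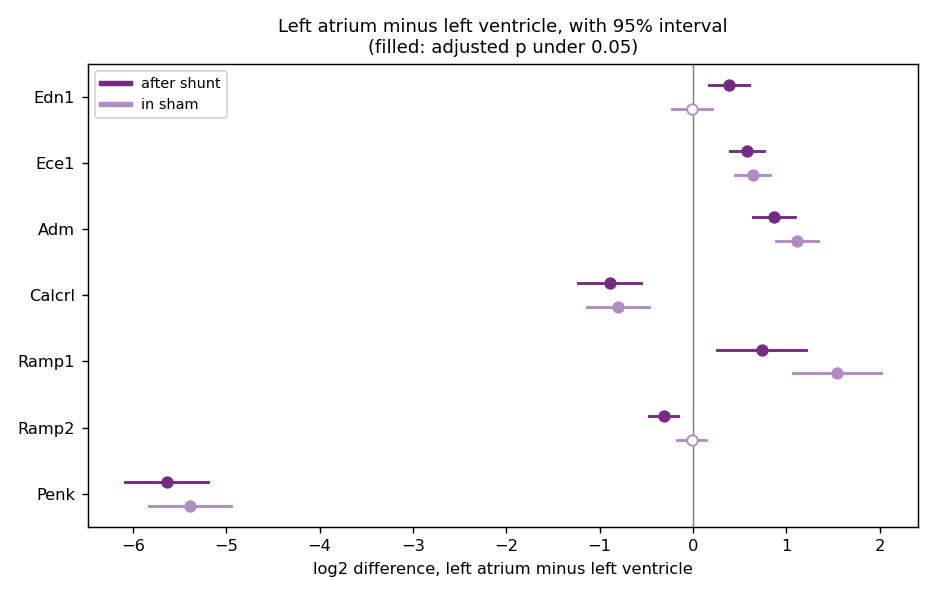
Log2 difference of left atrium minus left ventricle for the 7 genes tested (horizontal axis), after shunt and in sham, with 95% intervals from limma. Filled points have an adjusted p under 0.05. Penk lies at -5.64 after the shunt and -5.39 in sham, far from the other genes.

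**Figure D3:**
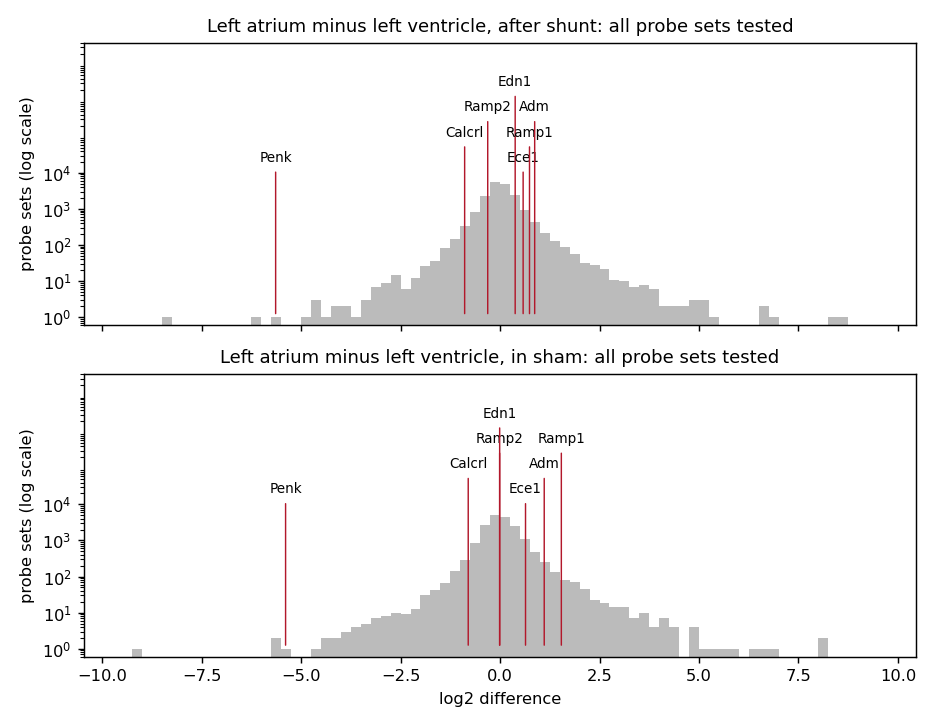
Number of probe sets (vertical axis, log scale) by log2 difference of left atrium minus left ventricle in bins of 0.25, for the 18625 probe sets tested, after shunt (top) and in sham (bottom). Lines mark the 7 genes tested. Penk lies in the sparse lower tail, at -5.64 after the shunt and -5.39 in sham, and the other genes lie between -0.89 and 1.54.

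Markers of the other cell types in the tissue also differed between the chambers. The 11 endothelial genes averaged 7.96 to 8.14 in shunt atria against 8.26 to 8.33 in shunt ventricles, and 7.99 to 8.08 in sham atria against 8.21 in sham ventricles. The 10 fibroblast genes averaged 8.62 to 8.99 in shunt atria against 8.30 to 8.55 in shunt ventricles, and the 6 mesothelial genes, of the lining of the heart's surface, 5.94 to 6.55 against 4.15 to 4.33. The 11 smooth muscle and pericyte genes averaged 7.57 to 7.81 in shunt atria against 7.90 to 7.98 in shunt ventricles. Single genes went against their list. After the shunt, 6 endothelial genes passed as lower in the atrium, but 2 passed as higher, Vwf at 0.98 ± 0.15 and Eng at 0.44 ± 0.12. Of the fibroblast genes 7 passed as higher and 1, Fap, as lower, and of the mesothelial genes 5 as higher and 1, Wt1, as lower. Of the smooth muscle and pericyte genes 0 passed as higher and 5 as lower. Summed on the linear scale, the endothelial genes gave 3137 to 3613 in shunt atria against 3815 to 3937 in shunt ventricles. Their part in the differences of Adm, Ece1, Calcrl, Ramp1 and Ramp2 was not tested.

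The second question was what the volume load changed. With limma, 0 of the 7 genes tested passed in the atrium, where 1.3% of all probe sets passed, and 0 of 7 in the ventricle, where 0.107% passed. At an unadjusted p under 0.05 there were 2 genes in the atrium, Edn1 and Ramp1, and 2 in the ventricle, Adm and Ramp2, where 15.2% and 14.7% of all probe sets reached that level. The median difference over the 7 genes was -0.11 in the atrium and 0.02 in the ventricle, against -0.01 over all probe sets tested in each chamber. For the mean of the 2 shunt differences, 0 of 7 passed, where 4.8% of all probe sets passed, and 1 gene, Adm, at 0.17 ± 0.07, had an unadjusted p under 0.05, as did 22.4% of all probe sets.

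Ramp1 had the largest shunt difference of the 7 genes in either chamber, in the atrium. The shunt atria stood at 5.80, 5.72 and 6.50, against 6.38, 7.04 and 6.76 in sham atria, a difference of -0.72 ± 0.22 (limma, unadjusted p = 0.00618, adjusted p = 0.14; 95% interval -1.19 to -0.25). The first and second shunt arrays lay below all sham arrays, while the third lay between the lowest and the middle sham array. It ranked 69 from the lowest of 18625 probe sets by size of difference. Without atrial shunt 3 the difference was -0.97 and passed (limma, adjusted p = 0.0226), and with arrays weighted by their agreement it was -0.90 and passed (limma, adjusted p = 0.0134), with a weight of 0.351 on that array. In the other 11 fits that left out 1 array it did not pass, with differences of -0.89 to -0.56.

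The hexokinase controls have a probe set at the 3′ end and another at the 5′ end of the transcript. The excess of the 3′ signal can grow when labelling stops short, among other causes, and its cause here was not tested. It was 1.44 on atrial shunt 3, against 0.80 and 0.94 on the other shunt atria and 1.01 to 1.10 on the sham atria. The smooth muscle and pericyte genes averaged 7.78, 7.81 and 7.57 on shunt atria 1, 2 and 3, against 7.62 to 7.69 on sham atria, and the 6 mesothelial genes 6.55, 6.52 and 5.94 against 6.45 to 6.68. The lists of ventricular myocytes, of nerve and Schwann cells and of atrial myocytes had log2 averages that did not overlap between shunt and sham atria. Ventricular myocyte genes averaged 6.63 to 7.04 against 5.93 to 6.35 (summed on the linear scale, 1416 to 1986 against 943 to 1178). Nerve and Schwann cell genes averaged 5.75 to 5.88 against 5.52 to 5.53 (468 to 560 against 447 to 489). Atrial myocyte genes averaged 10.05 to 10.09 against 10.12 to 10.24 (52506 to 54684 against 50986 to 53251). The sums of the nerve and atrial myocyte lists overlapped, and the atrial myocyte sums ran higher after the shunt, against the log2 averages. Of their genes tested, 3 of 7 ventricular myocyte genes and 2 of 6 nerve genes passed as higher in limma. In the atrial myocyte list 0 of 8 genes passed. Of all probe sets, 1.3% passed in the atrium in either direction. Of the ventricular myocyte genes 2 were below 0. Irx4 averaged 3.07 after the shunt against 3.39 in sham atria, both below the filter value, and Fhl2 averaged 8.83 against 9.07. In the nerve list 1 gene, Mbp, was below 0, at -0.05 ± 0.14. The part of the 3′ excess and of all these lists in the Ramp1 and Edn1 values of the atrium was not tested. In the ventricle Ramp1 had 5.05, 5.55 and 5.20 after the shunt against 5.07, 5.37 and 5.12 in sham rats, groups that overlapped, with a difference of 0.08 ± 0.22 (limma, adjusted p = 0.895; 95% interval -0.39 to 0.56).

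Edn1 in the atrium had 4.84, 5.14 and 4.87 after the shunt, against 4.66, 4.62 and 4.59 in sham rats, a difference of 0.33 ± 0.10 (limma, unadjusted p = 0.00641, adjusted p = 0.142; 95% interval 0.11 to 0.54). All 3 shunt arrays stood above all sham arrays, which 20.7% of all probe sets did in 1 direction or the other, 8.33% as higher and 12.4% as lower. It passed in 1 alternative, with weighted arrays (0.41, limma adjusted p = 0.0316), and in 0 of 12 fits that left out 1 array (0.23 to 0.38). In the ventricle Edn1 had 4.55, 4.67 and 4.47 after the shunt against 4.81, 4.59 and 4.51 in sham rats, groups that overlapped, with a difference of -0.07 ± 0.10 (limma, adjusted p = 0.781). The endothelial genes averaged 8.14, 8.09 and 7.96 on the shunt atria against 7.99 to 8.08 on the sham atria, and their part in the Edn1 values was not tested.

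Adm in the ventricle had 6.54, 6.80 and 6.50 after the shunt, against 6.44, 6.41 and 6.11 in sham rats, a difference of 0.29 ± 0.10 (limma, unadjusted p = 0.0146, adjusted p = 0.226; 95% interval 0.07 to 0.52). The groups did not overlap, but the gap between the lowest shunt and the highest sham array was small, and the difference was 0.19 to 0.35 in the fits that left out 1 array. Several marker lists stood apart on the same ventricular arrays. The macrophage genes averaged 6.43 to 6.69 after the shunt against 6.27 to 6.36 in sham rats (summed, 1986 to 2184 against 1657 to 1693), and the endothelial genes 8.26 to 8.33 against 8.21 (3815 to 3937 against 3602 to 3631). The mesothelial genes averaged 4.15 to 4.33 against at most 4.08 (150 to 163 against 123 to 128). Of these 6 genes, Krt19, Krt8 and Upk1b averaged 3.21 to 3.53 in the ventricular groups, below the filter value of 4.01. They passed the filter through their atrial values. The largest rises in the list were those of Wt1, at 0.45 ± 0.10, and Lrrn4, at 0.40 ± 0.20, and 2 of the 6 genes were below 0. The nerve and Schwann cell genes averaged 5.06 to 5.07 against 4.93 to 4.99 (229 to 230 against 208 to 219). The largest rise among them was that of Prph, at 0.64 ± 0.12. Mbp stood at -0.26 ± 0.14, and 2 of the 6 genes were below 0. The ventricular myocyte genes averaged 10.79 to 10.85 against 10.60 to 10.71 (32296 to 33328 against 30016 to 31018). By far the largest rise in that list was that of Myh7, which averaged 11.58 after the shunt against 10.61 in sham ventricles. The median difference over its 7 genes was 0.05, and 2 of the 7 were below 0. In these 5 lists 0 genes passed in limma in the ventricle, and their part in the Adm and Ramp2 values was not tested. In the atrium Adm had 7.44, 7.58 and 7.41 after the shunt against 7.44, 7.44 and 7.42 in sham rats, groups that overlapped, with a difference of 0.04 ± 0.10 (limma, adjusted p = 0.882; 95% interval -0.18 to 0.27). The difference turned to -0.01 without atrial shunt 2.

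Ramp2 in the ventricle had 8.57, 8.76 and 8.80 after the shunt, against 8.44, 8.52 and 8.53 in sham rats, a difference of 0.21 ± 0.07 (limma, unadjusted p = 0.0113, adjusted p = 0.212; 95% interval 0.06 to 0.37). The groups did not overlap, as for 20.8% of all probe sets, 10.1% as higher and 10.7% as lower. In the atrium Ramp2 had 8.39, 8.41 and 8.40 after the shunt against 8.43, 8.57 and 8.46 in sham rats. These groups did not overlap either, with the shunt atria lower, at a difference of -0.08 ± 0.07 (limma, adjusted p = 0.627; 95% interval -0.24 to 0.07).

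Penk, Ece1 and Calcrl had no shunt difference beyond the spread between arrays. In the ventricle, where Penk was abundant, its difference was 0.02 ± 0.20 (limma, adjusted p = 0.978), and the 95% interval of -0.42 to 0.46 leaves room for a modest change in either direction. In the atrium it was -0.23 ± 0.20 (limma, adjusted p = 0.64; 95% interval -0.67 to 0.21), and the groups overlapped. Ece1 differed by -0.11 ± 0.08 in the atrium (95% interval -0.29 to 0.07) and by -0.05 ± 0.08 in the ventricle (-0.23 to 0.13). Calcrl differed by -0.12 ± 0.15 in the atrium (-0.45 to 0.22) and by -0.03 ± 0.15 in the ventricle (-0.36 to 0.31), and its other probe set by -0.11 ± 0.14 and -0.10 ± 0.14. The untested Ramp3 averaged 3.02 in shunt and 3.03 in sham atria, and 3.19 in shunt and 3.21 in sham ventricles.

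**Figure D4:**
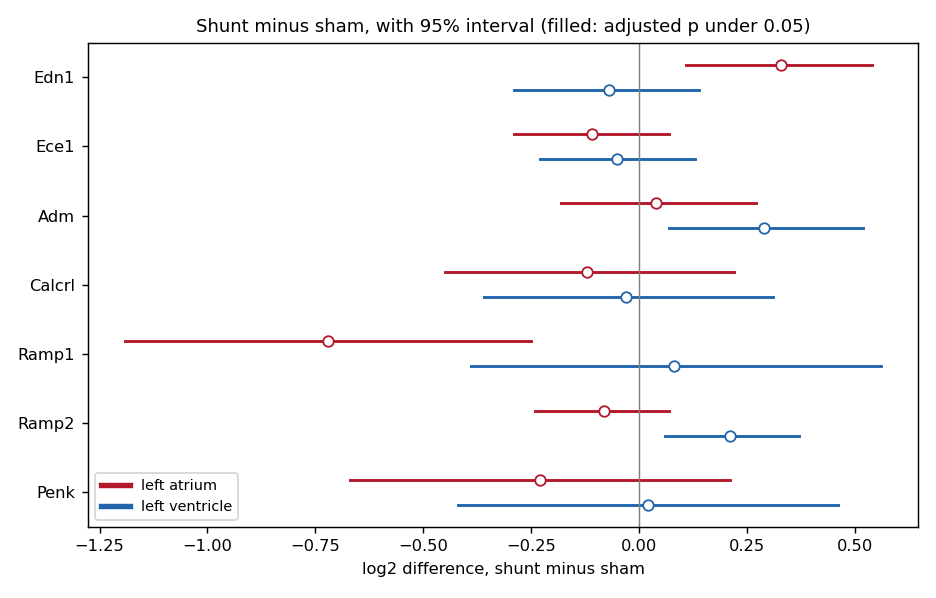
Log2 difference of shunt minus sham (horizontal axis) for the 7 genes tested, in left atrium and left ventricle, with 95% intervals from limma. All points are open because none had an adjusted p under 0.05. The intervals of Ramp1 and Edn1 in the atrium, and of Adm and Ramp2 in the ventricle, lie to 1 side of 0 before adjustment for the number of probe sets.

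**Figure D5:**
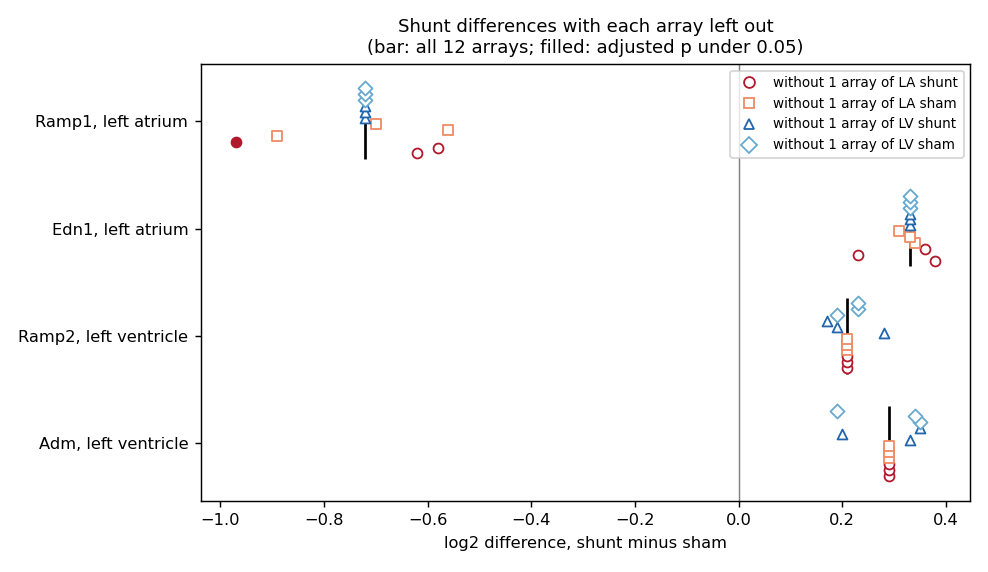
Shunt minus sham (log2, horizontal axis) for the 4 gene and chamber pairs with an unadjusted p under 0.05, refitted with each of the 12 arrays left out. Bars are the fit of all arrays, symbols show the group of the array left out, and a filled symbol has an adjusted p under 0.05. One symbol is filled, Ramp1 without atrial shunt 3, at -0.97.

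The third question was whether the chambers differed in their response. For the atrial minus the ventricular shunt difference, 0 of 7 genes passed in limma and 0% of all probe sets did, while 6.6% of all probe sets and 3 of the 7 genes had an unadjusted p under 0.05. These were Ramp1 at -0.80 ± 0.31 (limma, unadjusted p = 0.0226, adjusted p = 0.665), Edn1 at 0.40 ± 0.14 (unadjusted p = 0.0148, adjusted p = 0.621) and Ramp2 at -0.30 ± 0.10 (unadjusted p = 0.0121, adjusted p = 0.595). For Ramp1 the atrial excess over the ventricle was thus 0.74 after the shunt and 1.54 in sham rats, without a call on the change.

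The remaining genes of these pathways came from 3 lists written from textbook knowledge. In the shunt comparisons of the atrium, of the ventricle, of their mean and of their difference, 0 of the 19 endothelin genes, 0 of the 12 adrenomedullin genes and 0 of the 9 enkephalin genes tested passed in limma. Between the chambers, 5 of the 19 endothelin genes were higher and 5 lower in the atrium after the shunt, and 4 were higher and 6 lower in sham rats. These counts are near the 41.9% and 47.2% of all probe sets that passed in those comparisons, and the median difference was -0.03 after the shunt and -0.14 in sham rats. Itpr1, an inositol trisphosphate receptor that releases calcium from stores, was higher in the atrium by 1.34 ± 0.09 after either operation. Gucy1a1, a subunit of the nitric oxide receptor guanylate cyclase, was higher by 0.51 ± 0.08 after the shunt and 0.79 ± 0.08 in sham rats. Prkce, a protein kinase C, was lower, at -0.73 ± 0.21 after the shunt and -0.82 ± 0.21 in sham rats. Nos3, the endothelial nitric oxide synthase, was lower, at -0.80 ± 0.10 after the shunt and -0.33 ± 0.10 in sham rats. Gnaq, the G protein that couples endothelin receptors to phospholipase C, was lower in sham rats, at -0.50 ± 0.08, and had a difference of 0.05 ± 0.08 after the shunt (limma, adjusted p = 0.633). Its mean of 4.16 lay close to the filter.

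Of the 12 adrenomedullin genes, 5 were higher and 4 lower in the atrium after the shunt, and 6 higher and 4 lower in sham rats. Of all probe sets, 22.4% were higher and 19.4% lower after the shunt, and 25.2% and 22% in sham rats. Pam, the enzyme that amidates adrenomedullin and other peptides, was higher by 1.23 ± 0.07 after the shunt and 1.26 ± 0.07 in sham rats, the same direction as Adm. Egln3, Slc2a1 and Vegfa, known like Adm as genes that respond to low oxygen, were lower, the opposite direction to Adm. The part of oxygen in the values of Adm or of these genes was not tested. Egln3 stood at -1.49 ± 0.10 after the shunt and -1.63 ± 0.10 in sham rats, Slc2a1 at -1.30 ± 0.12 after either operation, and Vegfa at -1.12 ± 0.16 and -1.24 ± 0.16. Calca and Calcb, which encode the forms of calcitonin gene-related peptide, and Calcr, the calcitonin receptor, were below the filter at means of 3.27, 3.27 and 3.20.

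Of the 9 enkephalin genes, 3 were higher and 0 lower in the atrium after the shunt, and 3 higher and 1 lower in sham rats, against 41.9% and 47.2% of all probe sets in either direction. Gnao1, a G protein that opioid receptors use, was higher by 2.32 ± 0.14 after the shunt and 1.94 ± 0.14 in sham rats. Cpe, a carboxypeptidase that trims enkephalins and other peptides, was higher by 0.65 ± 0.06 after the shunt and 0.53 ± 0.06 in sham rats, the chamber where Penk was low. Arrb1, an arrestin, was higher by 0.28 ± 0.10 and 0.32 ± 0.10, and Grk2, a receptor kinase, was lower at -0.33 ± 0.10 in sham rats and had -0.04 ± 0.10 after the shunt (limma, adjusted p = 0.789). The opioid receptor genes Oprm1, Oprd1, Oprk1 and Oprl1 were all below the filter, with means over the 12 arrays of 3.27, 3.93, 3.33 and 3.38. Low signal on an array does not show that a receptor is absent.

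The genes nearest to each ligand over the 12 arrays were found by the root mean square difference of log2 values, after each of 10606 genes was centred on its own mean. Nearest to Penk were Rpl3l, at 0.40, Aqp7, a glycerol channel, at 0.61, and Cxcl11, a chemokine, at 0.61, where Penk itself had a root mean square of 2.77 about its mean. Rpl3l averaged 4.29 in shunt atria, 4.90 in sham atria and 10.50 in both ventricular groups. Nearest to Adm were Herc4, at 0.11, Fkbp14, at 0.12, and Ddr1, a collagen receptor, at 0.12, against 0.52 for Adm itself. Nearest to Edn1 were Htr2a, a serotonin receptor, at 0.08, Ctsf, a cathepsin, at 0.09, and Plpbp at 0.10, against 0.18 for Edn1 itself, so that Edn1 varied little on these arrays.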

How the data were processed

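RNA of left atrial appendage and left ventricular free wall was measured on 12 one-colour Affymetrix rat arrays. Per the labels' protocols, cRNA was biotin-labelled from 10 µg of total RNA. The deposited log2 values are RMA values, per the submitters' processing notes. The RMA version, and the arrays normalized together, are not given in the sources used here.

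Of 31099 probe sets, 57 controls were left out. Symbols came from the platform annotation, updated by Entrez identifier to the RefSeq gene table of GRCr8. Of the rest, 20826 probe sets had 1 symbol, 436 several and 9780 none, 20758 symbols were matched, and 68 kept the older name. Probe sets with a mean at or above the 40th percentile (4.01) were tested, 18625 in all, and each of the 10606 genes is given by the brightest of its probe sets that passed. RMA compresses low values, so small differences of dim probe sets may be understated.

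Limma 3.58.1 (R 4.3.3) was fitted with 1 mean per group over the 12 arrays (8 residual degrees of freedom, prior 3.68). Two-sided p-values were adjusted by Benjamini-Hochberg over all probe sets tested, with a threshold of 0.05. They measure the spread between pools, which the sources call biological replicates, estimated over all groups together. Errors are SE, and 3 arrays per group limit the precision. The fit was tested on simulated data.

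The members, gene lists and tests were chosen with earlier results of these data known. The genes named are the members, pathway-list genes past the threshold in a shunt comparison, up to 4 per list and operation with the largest differences between the chambers among those that passed, and 3 nearest profiles each for Edn1, Adm and Penk. Myl2, Myl3, and the peptide and receptor genes below the filter were named after their values were seen. The alternatives were other filters, a further quantile normalization, a replicate block, only the groups compared, array weights, averaging the probe sets of each gene, and dropping each array in turn.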

Additional observations from a re-analysis of the deposited data

Results flagged for a closer look

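Ramp2 drew attention because its shunt arrays lay on opposite sides of the sham mean in the 2 chambers, although neither shunt difference passed (limma, -0.08 ± 0.07 with adjusted p = 0.627 in the atrium, 0.21 ± 0.07 with adjusted p = 0.212 in the ventricle). All 3 atrial shunt arrays were below the sham atrial mean, by -0.09, -0.07 and -0.09, and all 3 ventricular shunt arrays were above the sham ventricular mean, by 0.08, 0.27 and 0.30. The atrial minus ventricular shunt effect was -0.30 ± 0.10 (limma, unadjusted p = 0.0121, adjusted p = 0.595), which did not pass. Its adjusted p was 0.305 to 0.693 over the 6 alternatives that kept all arrays. The endothelial genes averaged 8.26 to 8.33 on the ventricular shunt arrays against 8.21 on the sham arrays, and their part in the result was not tested.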

How the results depend on the processing

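The chamber calls held in every alternative run and in the fits that left out 1 array, except Ramp1 after the shunt, which lost its call in 3 of those fits; 7 genes passed after the shunt (6 to 7 leaving out 1 array, and 6 with a filter at the 60th percentile, where Edn1 was not tested) and 5 in sham rats (5 in each). In the atrial shunt comparison the count of 0 became 2 with array weights, Edn1 and Ramp1, and 0 to 1 leaving out 1 array. The other shunt counts were 0 in every alternative run. Differences near 0 changed sign in alternatives that kept all arrays in 2 cases: Edn1 between the chambers in sham rats was 0.01 after a further quantile normalization, and Calcrl under shunt in the ventricle 0.03 with array weights. Leaving out 1 array, differences that did not pass changed sign in these ranges. Under shunt in the atrium Adm ran from -0.01 to 0.08. Under shunt in the ventricle Ece1 ran from -0.13 to 0.01, Ramp1 from -0.06 to 0.19, Calcrl from -0.20 to 0.15, Penk from -0.07 to 0.12 and Edn1 from -0.14 to 0.02. In the mean effect Calcrl ran from -0.16 to 0.01. In the difference of the effects Ece1 ran from -0.12 to 0.02 and Calcrl from -0.26 to 0.09. Between the chambers in sham rats Ramp2 ran from -0.05 to 0.02 and Edn1 from -0.08 to 0.07. The cause was not tested.

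The replicate block, by array number alone, changed no call of a gene here. There were 0 passing in each shunt comparison, 7 between chambers after the shunt and 5 in sham rats. Over all probe sets it gave 208 calls in the atrium, against 243. This block joins shunt and sham arrays of 1 number, which came from different rats, so it cannot show whether shared rats matter to the chamber calls. Atrial and ventricular arrays of 1 operation and number, which could share rats, deviated from their group means with correlations of -0.24 to 0.44, above 0.1 in 4 of 6 pairs (2 of 12 with other numbers). In sham rats the same-number pairs had 0.23, 0.26 and 0.07, against -0.23 to 0.03 with other numbers. In shunt rats they had -0.24, 0.44 and 0.44, against -0.62 to 0.45. As not every pair was above 0.1, the numbers were not taken as pairs, but whether they share rats is not known. If they do, the chamber comparisons leave that pairing out. Over all probe sets, the atrial count of 243 was 43 with only the atrial arrays, 910 with array weights and 66 to 469 leaving out 1 array. The ventricular count of 20 was 10, 160 and 0 to 118 in the same order, 82 with the 60th percentile filter and 39 after quantile normalization. The mean effect's 894 was 1664 with array weights and 309 to 1190 leaving out 1 array. The difference's 0 was 11 with array weights, 1 after quantile normalization and 0 to 19 leaving out 1 array.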

Other observations

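Of the 19 endothelin, 12 adrenomedullin and 9 enkephalin genes tested, 3 had an unadjusted limma p under 0.01 in the shunt comparison of 1 chamber. All were in the ventricle and were named after their values were seen. The share of all probe sets under 0.01 was not counted, and 14.7% had an unadjusted p under 0.05 in the ventricle. The 3 genes are therefore given as single values and not as a result about the pathways. Gnaq, the G protein of endothelin receptor signalling, differed by -0.42 ± 0.08 (limma, adjusted p = 0.0795), Plcb1, the phospholipase it activates, by -0.48 ± 0.12 (adjusted p = 0.113), and Hif1a, a transcription factor of the response to low oxygen, by 0.31 ± 0.07 (adjusted p = 0.111). None passed the threshold. Gnaq had a mean of 4.16 over the 12 arrays, with values of 3.95 to 4.62, close to the filter at 4.01.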
